A study of Mus musculus with 8 samples.

Results

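The genes examined here encode the eukaryotic translation initiation factors, eIF1 to eIF6, in embryonic mouse heart with and without a frameshift in Atf4. They were taken from the deposited expression table by name: every symbol that begins with Eif followed by a digit from 1 to 6, on a primary chromosome, without the eIF2 kinases (Eif2ak), the eIF4E-binding proteins (Eif4ebp) and symbols with a hyphen, which here name pseudogenes. The rule gave 51 of the 52778 features listed. Of these, 47 were tested, having 1 TPM or more in 4 or more libraries, among 15545 features tested in all. TPM is a transcript abundance scaled for transcript length and library size, so levels can be compared between genes. The rule did not use any measured value.

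Initiation factors bring the small ribosomal subunit, the initiator tRNA and the start codon together. eIF2 carries the initiator tRNA in its GTP-bound form, and eIF2B recharges eIF2 with GTP. eIF4E binds the cap, eIF4G is the scaffold, eIF4A unwinds the leader, and eIF3 holds the complex on the small subunit. When stress kinases phosphorylate the alpha subunit of eIF2, eIF2B is inhibited, most initiation slows, and the Atf4 mRNA is translated more through its upstream open reading frames. ATF4 is thus a product of this machinery and, as a transcription factor, a potential regulator of its genes.

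RNA came from the ventricular heart of embryos at embryonic day 11.5. The 4 control libraries are labelled C57BL/6 wild type. The 4 mutant libraries are from embryos homozygous for the loss of 7 bases from exon 3 of Atf4, made with CRISPR/Cas9 and described as a frameshift with an early stop that abolishes the protein. The allele is present in every cell of the embryo and not in the heart alone. The genotype field of the mutant samples also reads wild type, and their treatment field calls them a global knockout, so the grouping rests on the titles and that field. The labels do not say how many embryos went into a library. The design text calls the 4 libraries of a genotype biological replicates, but no label ties one to a litter or an embryo.

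Each library held 923473 to 949762 TPM over the listed features, of which 15380 to 15584 reached 1 TPM. TPM keeps no read depth, so replicate spread within a group is the error used. The Atf4 transcript itself was higher in the mutants, at 166 ± 15.1 TPM against 112 ± 8.07 TPM in the controls (SD, n = 4 each), so its level does not check the loss of the protein. Summed TPM of 6 ventricular cardiomyocyte markers was 21500 to 23810 in controls and 21280 to 23380 in mutants. The extraction protocol of the samples names cortical neurons, while 6 neuronal markers together summed to 7.83 to 12.8 TPM in controls and 8.71 to 10.01 TPM in mutants, with Neurod6 at 0 in every library. Erythroid markers summed to 3967 to 6728 TPM in controls and 3710 to 5216 TPM in mutants, and their part in the results was not tested. In bulk tissue, fewer cells of a type and less RNA per cell cannot be told apart.

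No initiation factor gene passed the test between genotypes. With limma and Benjamini-Hochberg adjustment over all 15545 features, 0 of 47 members had an adjusted p below 0.05, where 0.0386% of all features did (6 of them, with 0.00643% higher and 0.0322% lower in mutants). The 1 called higher was Atf4 itself (log2 fold change 0.57, limma adjusted p of 0.0430). The lowest adjusted p among the members was 0.7999. At an unadjusted p below 0.05 there were 4 members: Eif2s1 and Eif2a were higher in mutants, and Eif2s2 and Eif2b3 were lower. That is 8.51% of the members tested, against 6.1% of all features (2.65% higher and 3.45% lower). The 4 control and 4 mutant values did not overlap in 3 members, or 6.38%, against 3.68% of all features. Eif2s3x and Eif2a were the 2 with higher mutants, where 1.63% of all features were, and Eif2s2 the 1 with lower mutants, where 2.05% were. Without control replicate 1, control replicate 3 or mutant replicate 1 the count of 4 was 1, and without mutant replicate 2 it was 2. In these fits 5.17% to 6.67% of all features had an unadjusted p below 0.05.

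The mutant mean was above the control mean on the log2(TPM + 1) scale in 34 members and below it in 13. That is 72.3% above 0, where 48.2% of all features were above 0. With 1 library left out the number above 0 was between 30 and 38. The differences were small. The median log2 fold change of the members was 0.030, with a range of -0.25 to 0.27, beside a median of -0.0033 over all features tested. In 40 of 47 members the log2 fold change lay within 0.1 of 0. The 95% interval stayed within 0.2 of 0 in 39 members, so for those a larger difference lies outside the interval. The other 8 were Eif2s2, Eif2s3y, Eif2b3, Eif3j2, Eif4e, Eif4e2, Eif4e3 and Eif4g3. Fold changes on log2(TPM + 1) understate the change of genes with low TPM.

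**Figure D1:**
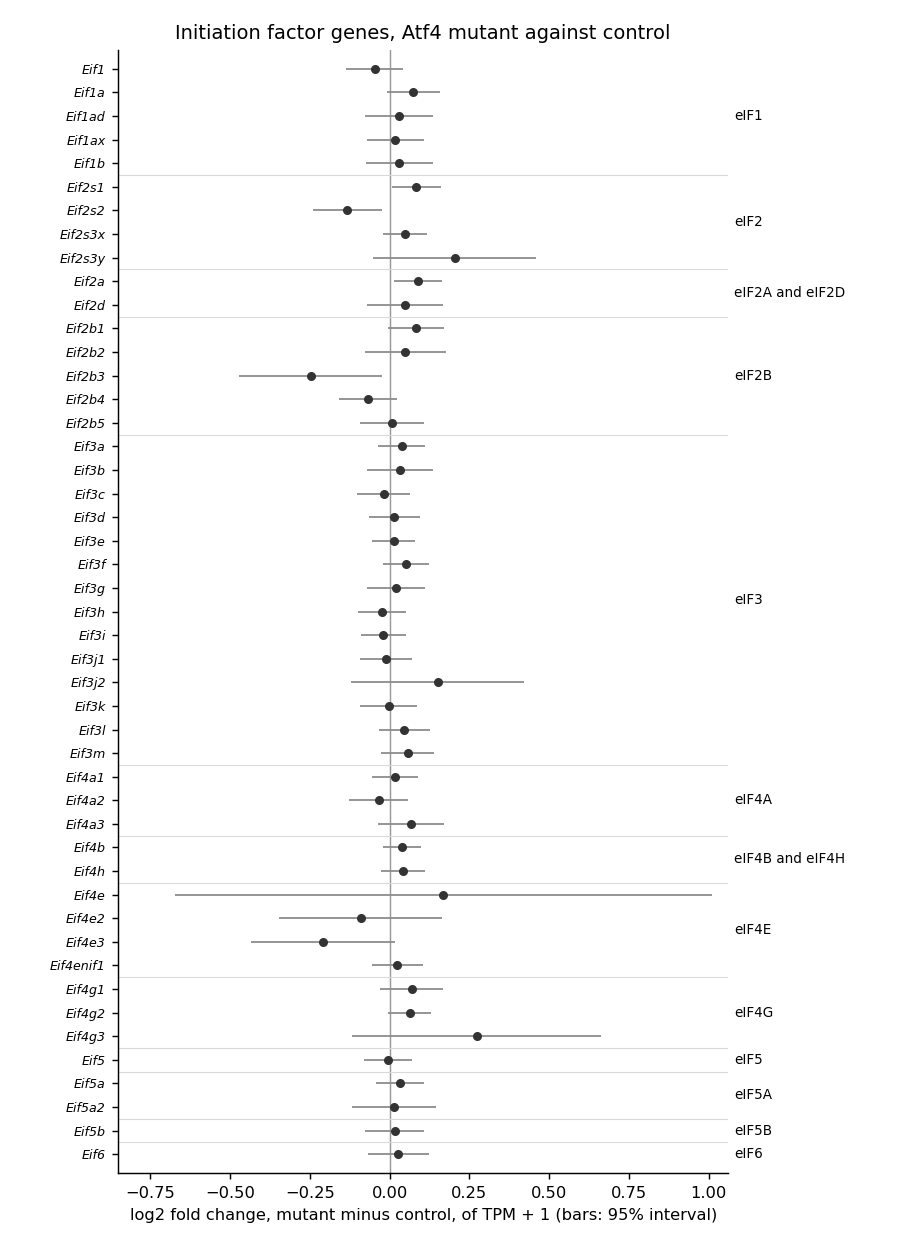
Log2 fold change of TPM + 1, mutant minus control, for the 47 tested initiation factor genes (points), with 95% intervals from limma (bars), ordered by factor. Most points lie within 0.1 of 0, and the widest interval, from -0.67 to 1.01, belongs to Eif4e.

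Promoters of 3 of the 4 eIF2 genes are shown, 1 for each subunit, because the alpha and beta genes were among the 4 members at an unadjusted p below 0.05, the X-linked gamma gene did not overlap between groups, and ATF4, as a dimer with C/EBP proteins, binds a response element that can be searched for. The sequences are from RefSeq (GRCm38.p6), which held promoters for 40 of the 51 genes, 52 promoters in all. Each is the 250 bases before the annotated start, 5′ to 3′ on the gene's strand. Capitals mark the C/EBP-ATF response element TGATGNAA, searched on both strands. The windows are chr12:78861822-78862071 on the plus strand for Eif2s1, chr2:154892907-154893156 on the minus strand for Eif2s2, and chrX:94212652-94212901 on the minus strand for Eif2s3x.
Eif2s1: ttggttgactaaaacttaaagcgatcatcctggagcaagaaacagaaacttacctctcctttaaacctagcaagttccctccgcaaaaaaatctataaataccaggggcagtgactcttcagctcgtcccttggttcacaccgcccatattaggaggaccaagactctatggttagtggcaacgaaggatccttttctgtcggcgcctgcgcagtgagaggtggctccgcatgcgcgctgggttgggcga
Eif2s2: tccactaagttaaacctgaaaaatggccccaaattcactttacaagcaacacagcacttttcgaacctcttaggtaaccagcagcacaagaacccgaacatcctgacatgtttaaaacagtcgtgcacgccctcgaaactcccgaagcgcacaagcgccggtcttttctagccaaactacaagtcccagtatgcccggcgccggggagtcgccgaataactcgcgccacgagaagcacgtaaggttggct
Eif2s3x: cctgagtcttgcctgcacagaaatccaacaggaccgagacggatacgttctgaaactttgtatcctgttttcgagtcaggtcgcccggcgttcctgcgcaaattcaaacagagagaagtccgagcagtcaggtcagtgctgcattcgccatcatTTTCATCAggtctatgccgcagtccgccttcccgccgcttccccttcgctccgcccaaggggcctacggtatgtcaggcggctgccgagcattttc

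Searched over the whole 300-base promoter windows, 250 bases before to 50 after the start, TGATGNAA matched 1 of the 52 promoters, that of Eif2s3x. Its first base lies at position -96, on the strand opposite to the gene. The share was 1.92% of the members' promoters, against 3.97% of all 32851 mouse promoters in the table and 2.2% of the promoters of tested genes. The cAMP response element TGACGTCA, which other members of the ATF family bind, matched 0 of the 52, where 1.79% of all promoters and 2.87% of those of tested genes held it. A match is a run of letters and not a measured binding site, and no match says only that these letters are not in this window.

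The ETS motif CCGGAAGT, common in promoters of broadly expressed genes, was found in 9 of the 52 promoters, or 17.3%, which belong to 7 of the 40 genes. All promoters held it in 3.89%, and the promoters of tested genes in 7.66%. Counted by gene, the share was 17.5% of the members, against 4.31% of all genes and 8.78% of tested genes. The 7 member genes were Eif2b2, Eif2b4, Eif3d, Eif3l, Eif4e2, Eif5a and Eif5a2, so they belong to eIF2B, eIF3, eIF4E and eIF5A. Eif5a2 carried it at 2 places, and the 3 annotated promoters of Eif4e2 overlap and share 1 copy. For 5 of these genes 30 bases around the motif (capitals, in either orientation) are given on the gene's strand, to show how far the match extends between genes.
Eif2b2 (chr12:85219486-85219515, plus strand): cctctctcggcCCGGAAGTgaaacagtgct
Eif2b4 (chr5:31193120-31193149, minus strand): cccagtgcacgCCGGAAGTtgtagtccgct
Eif3d (chr15:77970877-77970906, minus strand): agctgtgacacACTTCCGGttgtgtctcac
Eif3l (chr15:79075176-79075205, plus strand): ggctgggcgggACTTCCGGtccggccaagc
Eif5a (chr11:69920667-69920696, minus strand): cagccgtagcaCCGGAAGTgttccccattg

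eIF2 is a trimer of an alpha, a beta and a gamma subunit. Eif2s1, on chromosome 12, encodes the alpha subunit, which carries the serine that stress kinases phosphorylate. It was measured at 63.7, 65.4, 64.5 and 63.6 TPM in control replicates 1 to 4, and at 69.8, 64.8, 68.4 and 69.8 TPM in mutant replicates 1 to 4. In 3 mutant libraries it lay above every control, and mutant replicate 2 lay among the controls. The log2 fold change was 0.084 (95% interval 0.0061 to 0.16, limma unadjusted p of 0.0373, adjusted p of 0.809).

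Eif2s2, the beta subunit, on chromosome 2, differed the other way. The controls held 109.7, 104.5, 104.4 and 105.4 TPM, and the mutants 89.7, 92.8, 101.3 and 103.1 TPM. Every mutant value was below every control value, and mutant replicates 1 and 2 were the lowest, while replicates 3 and 4 came close to the lowest control. The means were 106 ± 2.49 and 96.7 ± 6.48 TPM (SD, n = 4 each). On the log2 scale the difference was -0.13, with an interval of -0.24 to -0.025. The limma test gave an unadjusted p of 0.0208 and an adjusted p of 0.7999. The unadjusted p was above 0.05 without control replicate 1, mutant replicate 1 or mutant replicate 2, and at most 0.0583 there.

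Because alpha and beta differed in opposite directions, their ratio was computed in each library, a choice made after the values were seen and given without a test. Eif2s2 over Eif2s1 was 1.72, 1.598, 1.62 and 1.66 in the controls and 1.28, 1.43, 1.48 and 1.48 in the mutants. The groups did not overlap, with means of 1.65 ± 0.0546 and 1.42 ± 0.0918 (SD, n = 4 each). Eif2s2 already separated them alone, and the pair was picked for its opposite differences. The separation of the ratio is therefore not a further result. Leaving out any 1 library kept the difference of the mean log2 ratios, mutant minus control, between -0.24 and -0.17.

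The gamma subunit, which binds GTP and the initiator tRNA, has a pair of genes, Eif2s3x on the X chromosome and Eif2s3y on the Y chromosome. Eif2s3x was 83.7, 82.6, 83.4 and 81.3 TPM in controls and 88.7, 84.5, 84.0 and 85.1 TPM in mutants. Every mutant value was above every control value, narrowly, and the log2 fold change of 0.048 had a limma unadjusted p of 0.149 (adjusted p of 0.867). Eif2s3y was 52.9, 53.6, 37.7 and 49.6 TPM in controls and 52.0, 61.9, 59.1 and 49.5 TPM in mutants, and the groups overlapped.

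Control replicate 3 was the lowest for Eif2s3y. Its ratio of Eif2s3x to Eif2s3y was 2.21, while the other controls lay between 1.54 and 1.64. Without that library the log2 fold change of Eif2s3y was 0.090 in place of 0.20. Both genes together gave 131 ± 7.23 TPM in controls and 141 ± 4.99 TPM in mutants. All 8 libraries held transcripts of the Y-linked gene.

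Near-identical copies touch these values. How the authors counted reads that match several places is not stated. Shared sequence was measured as the share of 75-base windows of a gene's transcripts that occur exactly in another gene (GENCODE M21). The windows of all annotated transcripts of a gene were pooled, so the share of its main transcript can differ. Gm9892, on chromosome 8, shares 7.92% of the windows of Eif2s2 and was measured at 39.9 ± 1.75 TPM in controls and 35.9 ± 5.03 TPM in mutants. In mutant replicates 1 to 4 it was 43.2, 35.1, 33.2 and 32.0 TPM, the reverse of the order of Eif2s2. How reads were divided between the 2 was not tested. Summed with it, Eif2s2 was 149.6, 145.3, 145.7 and 142.8 TPM in controls and 132.8, 128.0, 134.5 and 135.1 TPM in mutants. The groups did not overlap in the sum either, but Eif2s2 already separated them alone, so this is not a further result. Gm2223 shares 34.2% of the windows of Eif2s3x, and the sum of both was 124 ± 2.52 TPM in controls and 129 ± 2.97 TPM in mutants, where the groups overlapped.

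eIF2A and eIF2D are single proteins, distinct from eIF2, that can deliver initiator tRNA by other routes. Eif2a was 56.8, 57.0, 54.4 and 57.7 TPM in controls and 59.9, 60.6, 58.9 and 61.2 TPM in mutants. Every mutant value lay above every control value. The log2 fold change was 0.089 (interval 0.015 to 0.16, limma unadjusted p of 0.0234, adjusted p of 0.7999), and the unadjusted p was above 0.05 without control replicate 3, mutant replicate 2 or mutant replicate 4. Eif2a overlaps Serp1, on the other strand, which averaged 99.7 TPM, and whether the counting used strand is not stated. Eif2d was 33.6, 37.7, 38.8 and 38.9 TPM in controls and 40.2, 37.4, 38.8 and 37.6 TPM in mutants, with overlapping groups and a log2 fold change of 0.048.

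eIF2B, the exchange factor that reloads eIF2 with GTP, has 5 subunits. Its catalytic subunit, epsilon, encoded by Eif2b5, had the highest transcript level, at 57.0 TPM over all libraries, and gamma, encoded by Eif2b3, the lowest, at 16.2 TPM, a 3.52-fold range. Eif2b3, the partner of epsilon in the catalytic subcomplex, was 17.5, 17.6, 19.5 and 15.9 TPM in controls and 12.8, 13.3, 15.3 and 17.6 TPM in mutants. In 3 mutants it lay below every control, while mutant replicate 4 was above all but 1 control. The log2 fold change was -0.25 (interval -0.47 to -0.024, limma unadjusted p of 0.0332, adjusted p of 0.809).

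The 4 other subunits lay closer together between genotypes. Eif2b1, the regulatory alpha subunit, was 37.1, 36.2, 35.5 and 38.3 TPM in controls and 38.0, 38.5, 39.1 and 40.3 TPM in mutants. Eif2b2, the beta subunit, was 36.4, 36.0, 36.8 and 34.9 TPM in controls and 41.9, 36.4, 34.7 and 36.4 TPM in mutants. Both groups overlapped in each gene, and the high Eif2b2 value came from mutant replicate 1, without which its log2 fold change was -0.0055 in place of 0.049. Eif2b4, the delta subunit, was 39.6, 37.4, 36.4 and 38.0 TPM in controls and 37.2, 35.3, 35.2 and 36.6 TPM in mutants. Eif2b5 was 60.0, 56.9, 54.0 and 56.7 TPM in controls and 60.2, 55.0, 58.0 and 55.4 TPM in mutants. The lowest unadjusted p among these 4 was 0.0600, for Eif2b1 (limma, adjusted p of 0.832). The sum over the 5 genes was 185 ± 3.76 TPM in controls and 184 ± 5.03 TPM in mutants.

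**Figure D2:**
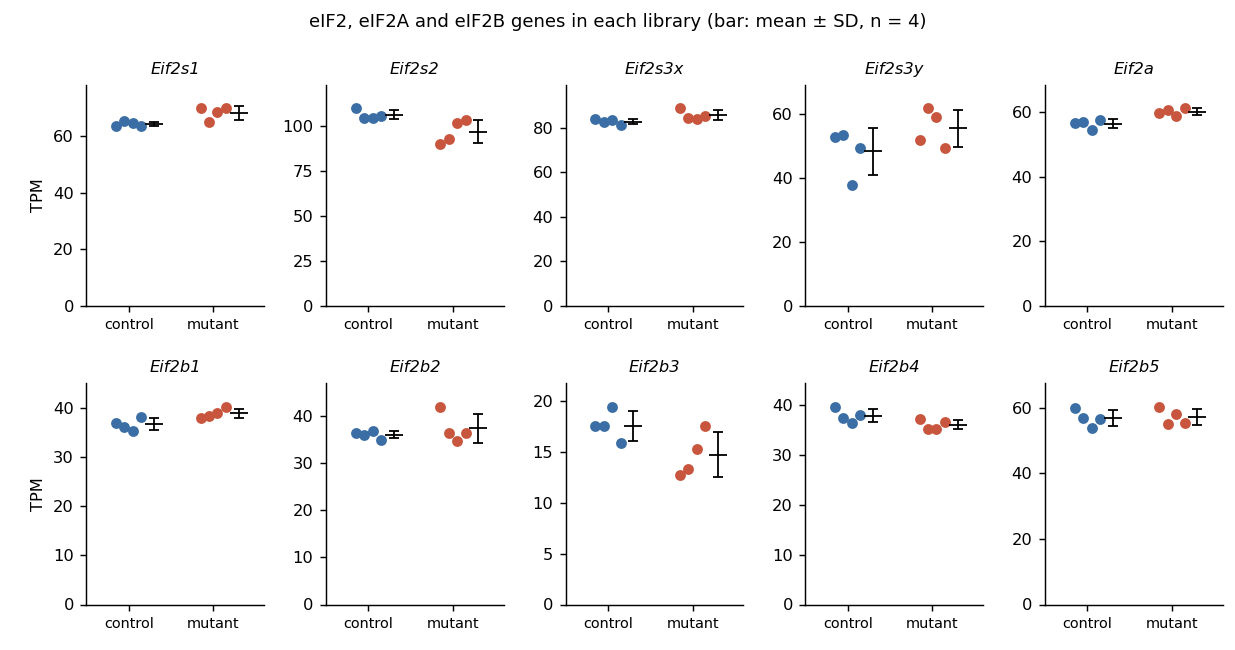
TPM in each library (points) for the genes of eIF2, eIF2A and eIF2B, controls in blue and mutants in red, with the mean and SD of 4 libraries beside them. Eif2s2 shows every mutant below every control, Eif2s3x and Eif2a show every mutant above every control, and the other panels overlap.

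eIF3, the largest initiation factor, was the most abundant as a sum of transcripts. Its 12 core subunits ranged from 159 TPM for Eif3d to 284 TPM for Eif3h, a 1.78-fold range, with log2 fold changes from -0.023 to 0.056. None of its 14 genes had an unadjusted p below 0.05, where 6.1% of all features did. In 14 genes such a count does not set eIF3 apart. Eif3h, the most abundant, was 282, 293, 286 and 285 TPM in controls and 279, 269, 288 and 292 TPM in mutants. Eif3f, which had the lowest unadjusted p (0.149 in limma, adjusted p of 0.867), was 161, 161, 158 and 166 TPM in controls and 175, 164, 168 and 164 TPM in mutants. Both genes overlapped between groups. The other core genes, Eif3a, Eif3b, Eif3c, Eif3d, Eif3e, Eif3g, Eif3i, Eif3k, Eif3l and Eif3m, lay inside the ranges above.

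The j subunit is loosely attached to eIF3 and has a pair of genes in the mouse. Eif3j1 averaged 55.4 TPM and Eif3j2 16.9 TPM, both below every core subunit. Of the windows of Eif3j2, 87.4% occur in Eif3j1, so how their reads were divided is uncertain. Their sum was 71.7 ± 2.98 TPM in controls and 73.1 ± 3.09 TPM in mutants (SD, n = 4 each).

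The eIF1 group places the complex at the start codon. Eif1, the start codon gatekeeper, was 377, 354, 374 and 379.9 TPM in controls and 379, 353, 341 and 365 TPM in mutants, and its paralog Eif1b averaged 84.7 TPM. Eif1a, one of a pair of eIF1A genes with the X-linked Eif1ax, was 44.5, 44.9, 43.6 and 46.0 TPM in controls and 46.4, 48.0, 45.4 and 48.9 TPM in mutants. Its log2 fold change was 0.074 (limma unadjusted p of 0.0761, adjusted p of 0.841), and the groups overlapped. Eif1ax and Eif1ad, a protein with an eIF1A-like domain, averaged 54.1 and 39.6 TPM, with log2 fold changes of 0.018 and 0.030.

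Among the factors that open the mRNA leader, Eif4a1, the main RNA helicase of the cap complex, was 637, 615, 604 and 649 TPM in controls and 622, 631, 632 and 645 TPM in mutants. Eif4a3, a helicase of the exon junction complex rather than of initiation, was 167, 156, 150.4 and 167 TPM in controls and 179, 164, 165 and 163 TPM in mutants. Both overlapped between groups, and Eif4a2, the other cytoplasmic helicase, averaged 236 TPM with a log2 fold change of -0.035. Eif4b and Eif4h, which stimulate the helicase, averaged 206 and 228 TPM. Eif4b was 202, 206, 203 and 204 TPM in controls and 207, 211, 205 and 212 TPM in mutants. Eif4h was 224, 224, 218 and 232 TPM in controls and 232, 226, 238 and 229 TPM in mutants. Neither separated the groups alone, with limma unadjusted p of 0.181 for Eif4b and 0.201 for Eif4h (adjusted p of 0.891 and 0.896). Their sum did, narrowly, at 421 to 435 TPM in controls and 437 to 444 TPM in mutants. No share of sums that do not overlap was computed to compare this with.

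A processed pseudogene that the naming rule left out bears on Eif4a1. Eif4a-ps4, on chromosome 1, shares 93.4% of its windows with Eif4a1, and 22.5% of the windows of Eif4a1 lie in it. It was listed at 175, 174, 168 and 163 TPM in controls and at 185, 186, 186 and 181 TPM in mutants, with no overlap. Its log2 fold change was 0.12 (limma unadjusted p of 0.00388, adjusted p of 0.720). Summed with Eif4a1 the groups overlapped, at 796 ± 19.3 and 817 ± 7.86 TPM. Reads of the gene and of the pseudogene cannot be told apart in the shared windows.

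Eif4e, the cap-binding protein of the initiation complex, varied most between libraries of all tested members. It was 23.7, 64.1, 21.4 and 23.6 TPM in controls and 46.4, 23.1, 49.8 and 23.4 TPM in mutants. The level was thus high in control replicate 2 and in mutant replicates 1 and 3, and between 21 and 24 TPM in the other 5 libraries. Its residual SD of 0.66 (log2) was above that of 99.2% of all tested features, and its log2 fold change of 0.17 had an interval of -0.67 to 1.01. Without control replicate 2 the log2 fold change was 0.53, and without mutant replicate 3 it was -0.018.

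Gm7327, a feature on the X chromosome that holds 3.1% of the windows of Eif4e, was 11.1, 7.37, 11.3 and 6.38 TPM in controls and 7.31, 12.5, 6.53 and 10.9 TPM in mutants. It was under 8 TPM in the 3 libraries with high Eif4e and also in control replicate 4, which had low Eif4e. Eif4e2, a cap-binding homologue that can act as a repressor, was 56.5, 65.8, 62.2 and 59.1 TPM in controls and 65.5, 46.2, 67.4 and 51.8 TPM in mutants. The 3 libraries with the highest Eif4e also had the 3 highest Eif4e2 values. Why these libraries differ was not tested.

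Eif4e3, the least abundant cap-binding gene that was tested, was 4.95, 5.74, 5.60 and 5.17 TPM in controls and 4.64, 4.46, 5.35 and 3.69 TPM in mutants. In 3 mutants it lay below every control (log2 fold change -0.21, limma unadjusted p of 0.0671, adjusted p of 0.841). Eif4enif1, which encodes a transporter that carries eIF4E into the nucleus, averaged 42.0 TPM with a log2 fold change of 0.024. The summed eIF4E group was 141 ± 24.1 TPM in controls and 140 ± 26.1 TPM in mutants, the widest relative spread of any factor.

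**Figure D3:**
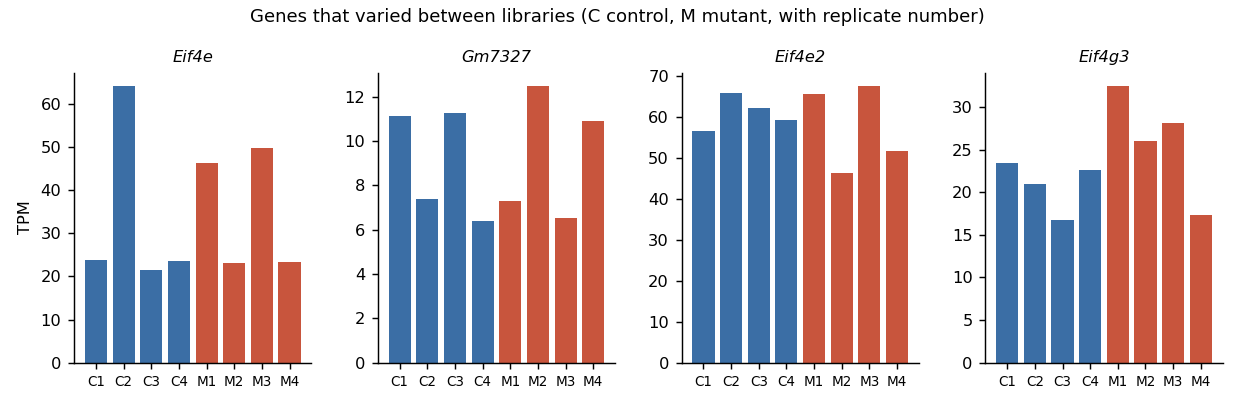
TPM per library (bars, from 0) for Eif4e, its partial copy Gm7327, Eif4e2 and Eif4g3 in control libraries C1 to C4 and mutant libraries M1 to M4. Eif4e is at 46.4 TPM or more in C2, M1 and M3 and at 23.7 TPM or less in the other libraries.

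Of the eIF4G scaffolds, Eif4g2, which lacks the eIF4E-binding part and serves cap-independent initiation, was the most abundant. It was 332, 323, 323 and 332 TPM in controls and 354, 331, 343 and 341 TPM in mutants, with a log2 fold change of 0.062 (limma unadjusted p of 0.0675, adjusted p of 0.841). In 3 mutants it was above every control, and mutant replicate 2 overlapped. Eif4g1, the main scaffold, was 237 ± 10.3 TPM in controls and 248.96 ± 11.8 TPM in mutants. Eif4g3 was 23.4, 21.0, 16.8 and 22.6 TPM in controls and 32.4, 26.0, 28.1 and 17.3 TPM in mutants. It had the highest log2 fold change of all members, 0.27, but with an interval of -0.12 to 0.66 (limma unadjusted p of 0.149, adjusted p of 0.867), and mutant replicate 4 lay between the 2 lowest controls.

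The factors of subunit joining and later steps were close between genotypes. Eif5, the GTPase activator of eIF2, was 146, 138, 136 and 145 TPM in controls and 142, 136, 142 and 142 TPM in mutants. Eif5b, the GTPase of subunit joining, was 46.0, 43.8, 42.7 and 43.8 TPM in controls and 42.9, 43.3, 46.6 and 45.4 TPM in mutants. Eif6, which keeps the large subunit from joining early, was 63.8, 61.7, 59.5 and 60.6 TPM in controls and 65.6, 60.2, 59.8 and 64.8 TPM in mutants. All of them overlapped between groups. Eif5a, the hypusine-carrying factor now best known for elongation, was the most abundant member, at 814, 778, 759 and 791 TPM in controls and 822, 787, 786 and 819 TPM in mutants. Its paralog Eif5a2 averaged 18.1 TPM. The ratio of Eif5a to Eif5a2 was 43.8 ± 1.97 in controls and 44.3 ± 2.30 in mutants.

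The 4 members that were not tested were at or near 0. Eif4a3l1 and Eif4a3l2, retrocopies related to Eif4a3, averaged 0.0625 and 0.288 TPM. Eif4e1b, an eIF4E homologue of the germ line, was listed at 0 in every library. Eif2c5 was also listed at 0, and its name is an older one of the argonaute family and not of an initiation factor.

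Summed by factor, the transcripts formed a steep order, alike in both groups but for the eIF1 and eIF4G groups, whose means stood in the opposite order. eIF3 gave 2405 ± 28.2 TPM in controls and 2430.0 ± 50.1 TPM in mutants. eIF4A followed at 1025 and 1034 TPM, then eIF5A at 804 and 822 TPM. The eIF1 group, at 593 ± 17.5 and 587 ± 15.7 TPM, and the eIF4G group, at 586 ± 17.3 and 617 ± 25.2 TPM, were next, and their libraries overlapped. eIF2 gave 301 ± 8.74 TPM in controls and 306 ± 5.32 TPM in mutants, and the groups overlapped. All 51 genes together gave 6808 ± 106 TPM in controls and 6906 ± 122 TPM in mutants, or 0.725% of the listed TPM in controls. The groups did not overlap for 2 of the 13 factor sums, eIF4B with eIF4H and eIF2A with eIF2D. The latter was 93.7 ± 2.60 TPM in controls and 98.7 ± 1.05 TPM in mutants. Of single tested features, 3.68% did not overlap, and no such share was computed for sums of genes. Eif2a alone did not overlap either, so the sum of eIF2A with eIF2D is not a separate result.

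**Figure D4:**
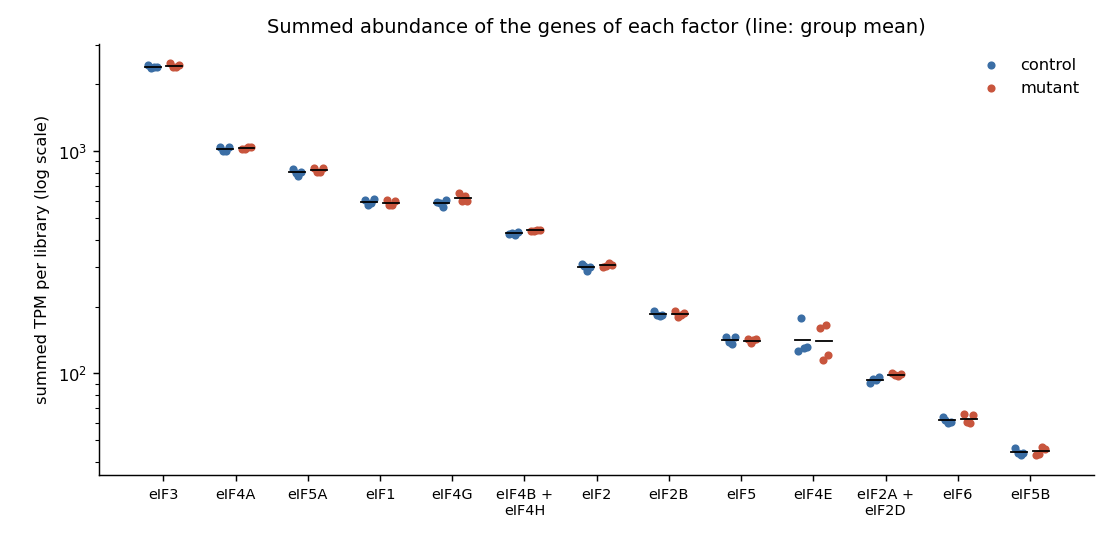
Summed TPM of the genes of each factor in each library (points, log axis), controls in blue and mutants in red, with a line at the group mean. In both groups the order runs from eIF3 at about 2405 TPM in controls down to eIF5B at 44.1 TPM, and eIF4E is the widest.

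The members were more even between libraries than most genes. Their median residual SD was 0.050 (log2), against 0.10 over all tested features, and 40 of the 47 lay below the overall median. They were also more abundant, with a median of 84.7 TPM against 15.8 TPM. Whether abundance accounts for the lower spread was not tested. The exceptions were the cap-binding genes, Eif4g3, Eif2s3y, Eif3j2 and Eif2b3.

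**Figure D5:**
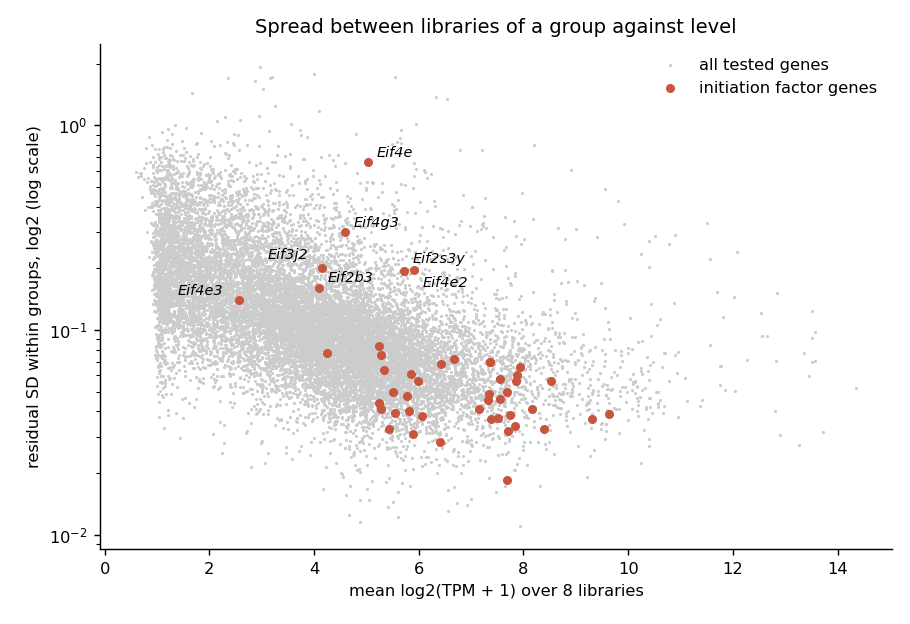
Residual SD within groups (log2, log axis) against mean log2(TPM + 1) over 8 libraries, for all 15545 tested features (grey) and the 47 initiation factor genes (red). Most initiation factor genes lie low and to the right, and Eif4e stands above the rest at 0.66.

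A list of 32 other translation genes, all tested, was compared in the same fit. It held the eIF2 kinases and phosphatase subunits, the eIF4E-binding proteins, elongation and termination factors and accessory proteins, but not the aminoacyl-tRNA synthetases. In this list 0 genes passed the adjusted test, where 0.0386% of all features did. The median log2 fold change was -0.0095, with 14 above 0 (43.8%, against 48.2% of all features) and 18 below. At an unadjusted p below 0.05 there was 1, or 3.12%, against 6.1% of all features, and 1 whose groups did not overlap, or 3.12%, against 3.68%. Both were Eef1a2, the elongation factor isoform of mature heart, muscle and neurons, at 17.9, 17.7, 19.4 and 19.9 TPM in controls and 16.3, 14.1, 16.7 and 15.4 TPM in mutants. Every mutant value was below every control value (log2 fold change -0.24, limma unadjusted p of 0.00416, adjusted p of 0.720).

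Gspt1, a termination factor, was 58.2, 55.5, 55.3 and 57.4 TPM in controls and 61.6, 56.8, 60.3 and 61.2 TPM in mutants. Pabpc4 and Eef1g, a poly(A)-binding protein and an elongation factor subunit, had log2 fold changes of 0.067 and 0.059. All 3 genes overlapped between groups. Among the 4 kinases of eIF2 alpha the log2 fold changes ranged from -0.048 for Eif2ak4, the sensor of uncharged tRNA, to 0.11 for Eif2ak3, the sensor of endoplasmic reticulum stress, and all 4 overlapped. Eif4ebp1, which sequesters eIF4E, was 203 ± 4.43 TPM in controls and 198 ± 4.42 TPM in mutants.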

How the data were processed

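RNA from the ventricular heart of 4 control and 4 Atf4 mutant mouse embryo samples at embryonic day 11.5 was sequenced. The authors deposited 1 table of TPM, which was used as it stands. The submitters' processing notes name FastQC, Trim Galore 0.6.7, HISAT2 2.2.1, StringTie 2.2.1, featureCounts, DESeq2 and the builds GRCm38 and mm10, without saying which made this table. The design text names a stranded poly(A) kit and the sample protocol ribosomal RNA depletion, and the treatment of multiply mapping reads is not given in the sources used here.

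Mutants were compared with controls on log2(TPM + 1) in limma 3.58.1 (R 4.3.3), with variances that follow the mean, no covariate, all 8 libraries, and 2-sided p-values adjusted by Benjamini-Hochberg over 15545 features with at least 1 TPM in at least 4 libraries. The fit was tested on simulated data. Sums per factor, ratios and motif searches (Python 3.11.15) are descriptions with no test. P-values measure the spread between these samples. Read depth is not known from TPM, and no counting interval is given.

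The members and lists were chosen with earlier results of these data known. Values per library are given for all eIF2 and eIF2B genes, for the most abundant member and the one with the smallest unadjusted p in each other factor, and for members with an unadjusted p below 0.05 or groups that do not overlap. Of the other translation genes, up to 4 with the smallest unadjusted p are named. Other genes, among them Eif4e, Eif4g3, the kinases and the copies, were named after their values were seen. The 17 alternatives of the fit were each of the 8 libraries left out, the filter removed or set at 5 TPM, a pseudocount of 0.1, median-of-ratios scaling, quantile normalization, rescaling without mitochondrial and haemoglobin genes, a constant prior variance, library weights, and a block for the replicate number.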

Additional observations from a re-analysis of the deposited data

Results flagged for a closer look

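A library was set apart where its gap to the nearest of the other 3 of its group, divided by the range of the group, passed Dixon's 95% critical value. Of 94 groups of 4 values tested, 6 passed, where chance at a rate of 5% gives 4.7. Eif4e was at 64.1 TPM in control replicate 2, against 21.4 to 23.7 TPM in the other controls. That library therefore also had the high summed eIF4E level, 177 TPM against 126 to 131 TPM, and the high ratio of Eif4e to Eif4e2, 0.974 against 0.344 to 0.420. The ratio of Eif2s3x to Eif2s3y was 2.21 in control replicate 3, against 1.54 to 1.64 in the other controls. Eif4a3 was at 179 TPM in mutant replicate 1, against 163 to 165 TPM in the other mutants. Leaving it out gave a log2 fold change of 0.034 in place of 0.066. Eif5 was at 136 TPM in mutant replicate 2, against 142 TPM in the other 3 mutants.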

How the results depend on the processing

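In all 17 alternatives 0 initiation factor genes and 0 of the other translation genes were called. Over all features the alternatives called only 0 to 7, so a count of 0 does not set either list apart. The members' median log2 fold change stayed between 0.015 and 0.042. Of 27 named genes, 20 kept their direction throughout. The number of members with an unadjusted p below 0.05, 4 in the main analysis, was 7 with no filter, where Eif4a3l1 also entered at under 0.2 TPM, and 1 to 5 with 1 library left out. Over all features the share was 5.26% with no filter and 5.17% to 6.67% with 1 library left out. The 6 calls over all genes became 0 with no filter and 0 with no variance trend, and 0 to 3 with 1 library left out. They were split 1 higher, which was Atf4, and 5 lower. The split was 0 higher and 6 lower with quantile normalization and with rescaling without mitochondrial and haemoglobin genes. Deviations of same-numbered libraries correlated between -0.082 and 0.035, and those of different-numbered libraries between -0.054 and 0.057. No sign of pairing by number was seen, but such weak correlations cannot exclude it. With the replicate number as a block there were 0 calls over all genes and 2 members at an unadjusted p below 0.05, Eif2a and Eif2s2. Of all features, 5.56% were below 0.05 in that fit.

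Library weights gave Eif2b5 a log2 fold change of -0.0014. With 1 library left out, the direction turned in 7 of the 27 named genes, none of them called. The log2 fold changes ranged from -0.0055 to 0.082 for Eif2b2, from -0.018 to 0.032 for Eif2b5, from -0.0015 to 0.033 for Eif4a1, from -0.018 to 0.53 for Eif4e, from -0.17 to 0.0081 for Eif4e2, from -0.024 to 0.0100 for Eif5 and from -0.0058 to 0.036 for Eif5b. The cause of these turns was not tested. Of the 17 alternatives, the unadjusted p was below 0.05 in 14 for Eif2s2, 14 for Eif2a, 9 for Eif2b3 and 7 for Eif2s1. TPM holds no depth, so counting error could not be set apart from the spread between libraries.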
